A study of Mus musculus with 6 samples.

Results

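The transcripts described here are those of *Cd79a*, *Cd79b*, *Ms4a1*, *Ighm*, *Pax5*, *Bank1*, *Mzb1*, *Jchain* and *Cd22*, genes known from B cells, in cells collected from the mouse peritoneal cavity as macrophages. The 9 genes were selected on their names as B cell genes with the difference between the groups in these same 6 libraries already known, so their levels and fold changes are a description and carry no test. Of the 9, 8 had a row among the 15415 genes of the table, and *Ighm* was not analysed here. RNA of starch-elicited peritoneal macrophages (PEMs) was sequenced in 3 knockout libraries, from mice with LysM-Cre and Tim-4 fl/fl alleles, and in 3 control libraries, from mice with Tim-4 fl/fl alleles alone. All mice were young adult males on the C57BL/6J background, and both groups carried the floxed *Tim-4* alleles. Only the knockout mice carried Cre, which is expressed from the *Lyz2* gene of myeloid cells, so the Tim-4 deletion and the presence of Cre cannot be told apart. All 6 libraries are labelled as LPS treated, and no sorting of the sequenced cells is described. The libraries were grouped by title, since the field for genotype carries the opposite names. The titles name the libraries by number without saying whether each came from its own mouse, so p-values measure the spread between these libraries.

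The peritoneal cavity holds resident macrophages together with many B cells, among them the self-renewing B-1 cells, and an injection of starch draws further cells into it. A B cell recognises antigen through a membrane immunoglobulin that is coupled to the signalling chains CD79A and CD79B. Its identity is held by the transcription factor PAX5, and after activation it can become a plasma cell that secretes antibody, for which MZB1 and the J chain serve the assembly of immunoglobulin. In a bulk sample, fewer B cells and less of the RNA per B cell cannot be told apart.

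Some libraries stood apart within their group. *Timd4*, the targeted gene, measured 0.333, 0.394 and 0.246 FPKM (reads divided by gene length and by library size) in the knockout, in the order of the library numbers, against 19.5, 12.05 and 1.19 FPKM in the control. Control library 3 was thus the control nearest to the knockout. *Lyz2* measured 41.4, 4656 and 106 FPKM in the knockout against 7090, 7171 and 8482 FPKM in the controls, so knockout library 2 lay near the control level. Between 36170767 and 42217558 reads per library were recovered from the deposited values. The macrophage genes *Csf1r* and *Cd68* were at 83.3 to 179.6 FPKM and at 815.5 to 1685 FPKM over the 6 libraries, above each of the 8 B cell transcripts measured.

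*Cd79a* was the most abundant of the B cell transcripts in the controls, and *Cd22* was the one whose values overlapped between the groups. Of the 9 members, 5 had a window among the RefSeq promoters searched (GRCm38.p6). The 250 bases before the start of *Cd79a*, of the secretory gene *Jchain* and of *Cd22* are shown so that the gene with the highest control level and a gene of the secretory pair can be read beside the one with overlapping groups. They lie at chr7:24897247-24897496 on the plus strand, chr5:88527898-88528147 on the minus strand and chr7:30879029-30879278 on the minus strand. Capitals mark the searched motifs, which were the octamer ATTTGCAT, the EBF half-site pair CCCNNGGG, the Spi1 site GAGGAAGT and the E-protein box CAGGTG, each read on both strands.
Cd79a: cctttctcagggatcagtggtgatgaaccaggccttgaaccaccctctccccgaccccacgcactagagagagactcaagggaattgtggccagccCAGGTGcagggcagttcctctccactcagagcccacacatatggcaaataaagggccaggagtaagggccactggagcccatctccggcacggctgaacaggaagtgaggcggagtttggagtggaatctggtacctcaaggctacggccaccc
Jchain: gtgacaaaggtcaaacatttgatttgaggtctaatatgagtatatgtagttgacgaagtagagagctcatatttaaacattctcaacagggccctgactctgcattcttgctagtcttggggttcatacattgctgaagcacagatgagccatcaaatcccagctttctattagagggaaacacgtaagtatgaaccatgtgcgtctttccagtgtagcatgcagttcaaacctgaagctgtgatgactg
Cd22: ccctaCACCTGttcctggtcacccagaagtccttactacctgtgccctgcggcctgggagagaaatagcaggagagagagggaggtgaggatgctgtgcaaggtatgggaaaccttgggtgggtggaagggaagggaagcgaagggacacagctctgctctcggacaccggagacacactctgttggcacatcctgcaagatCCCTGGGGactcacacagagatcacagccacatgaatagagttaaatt

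The E-protein box began 154 bases before the start in *Cd79a* and 245 bases before it in *Cd22*, and it was also present in *Bank1*. It occurs in 17.2% of the 32851 promoters searched, from which a chromosome and repeated windows of a gene were left out. The EBF pair was present in *Bank1* and in *Cd22* and occurs in 11.8% of the promoters searched. The octamer and the Spi1 site, found in 1.6% and 2.44% of them, were in none of the 5 windows. A match of letters is a description of these windows.

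The signalling chains of the antigen receptor were lower in every knockout library than in any control library. *Cd79a* (Entrez 12518) measured 2.83, 1.54 and 2.63 FPKM in the knockout, in the order of the library numbers, against 57.6, 33.7 and 15.3 FPKM in the control. The control mean of 35.5 ± 21.2 FPKM (SD, n = 3) was 15.2 times the knockout mean of 2.33 ± 0.695 FPKM (SD, n = 3). *Cd79b* (Entrez 15985), the partner chain, measured 1.02, 0.366 and 0.992 FPKM in the knockout against 23.4, 15.9 and 6.31 FPKM in the controls, a ratio of means of 19.1. Both genes were highest in control library 1 and lowest among the controls in library 3, and among the knockout libraries both were lowest in library 2. On the log2(FPKM + 1) scale the differences were -3.29 (standard error 0.44) for *Cd79a* and -3.03 (standard error 0.42) for *Cd79b*. The pseudocount of 1 makes such differences smaller for genes of low level.

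*Ms4a1*, *Pax5* and *Bank1* mark mature B cells. *Ms4a1* (Entrez 12482), which encodes the surface protein CD20, measured 0.775, 0.326 and 0.525 FPKM in the knockout against 16.3, 16.1 and 2.35 FPKM in the controls. Control library 3 held 0.145 of the mean of the other controls, yet it was still 3.03 times the highest knockout library, the narrowest gap among the 7 genes that did not overlap. The ratio of group means was 21.4, and 29.9 without control library 3.
*Pax5* (Entrez 18507) measured 0.0839, 0.109 and 0.0416 FPKM in the knockout against 2.71, 2.40 and 0.622 FPKM in the controls, with a ratio of means of 24.4. *Bank1* (Entrez 242248), which encodes a scaffold of receptor signalling in B cells, measured 0.142, 0.175 and 0.139 FPKM in the knockout against 3.54, 2.73 and 0.748 FPKM in the controls, with a ratio of 15.4. Both genes were below a level of 1 FPKM in control library 3 as well, and the knockout libraries lay lower again. The log2(FPKM + 1) differences were -2.70 (standard error 0.60) for *Ms4a1*, -1.34 (standard error 0.30) for *Pax5* and -1.42 (standard error 0.33) for *Bank1*.

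The genes of antibody assembly had the widest gaps between the groups. *Mzb1* (Entrez 69816), whose product is a chaperone helper in the endoplasmic reticulum of B-1, marginal zone and plasma cells, measured 0.289, 0.105 and 0.0270 FPKM in the knockout libraries. In the controls it was at 7.66, 8.62 and 5.83 FPKM, so that the lowest control was 20.2 times the highest knockout library. *Jchain* (Entrez 16069), which encodes the chain that joins IgM and IgA into polymers, measured 0.192, 0.0338 and 0.163 FPKM in the knockout against 6.47, 6.21 and 4.41 FPKM in the controls. Here the lowest control was 22.9 times the highest knockout library. The knockout levels rest on few reads, with 11, 4 and 1 reads on *Mzb1* and 17, 3 and 14 reads on *Jchain*. In summed reads, scaled by the totals, the control group held 52.5 times the knockout level of *Mzb1* (exact 95% interval 32.1 to 92.3) and 44.3 times that of *Jchain* (31.6 to 64.3). These intervals cover counting error only. The log2(FPKM + 1) differences were -2.87 (standard error 0.17) and -2.56 (standard error 0.16), and control library 3 kept 0.716 and 0.695 of the mean of the other controls.

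*Cd22* (Entrez 12483), which encodes an inhibitory lectin of the B cell surface, did not follow the others. It measured 6.42, 8.25 and 6.97 FPKM in the knockout against 9.58, 6.92 and 5.40 FPKM in the controls, and the groups overlapped. The means of 7.21 ± 0.934 and 7.30 ± 2.12 FPKM (SD over 3 libraries) lay closer together than the libraries of either group. The log2(FPKM + 1) difference was 0.01, with a 95% interval from -0.47 to 0.49. In the knockout libraries *Cd22* was thus above *Cd79a*, by a factor of 2.27 to 5.37, while in the controls it was at 0.166 to 0.353 of the level of *Cd79a*.

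**Figure D1:**
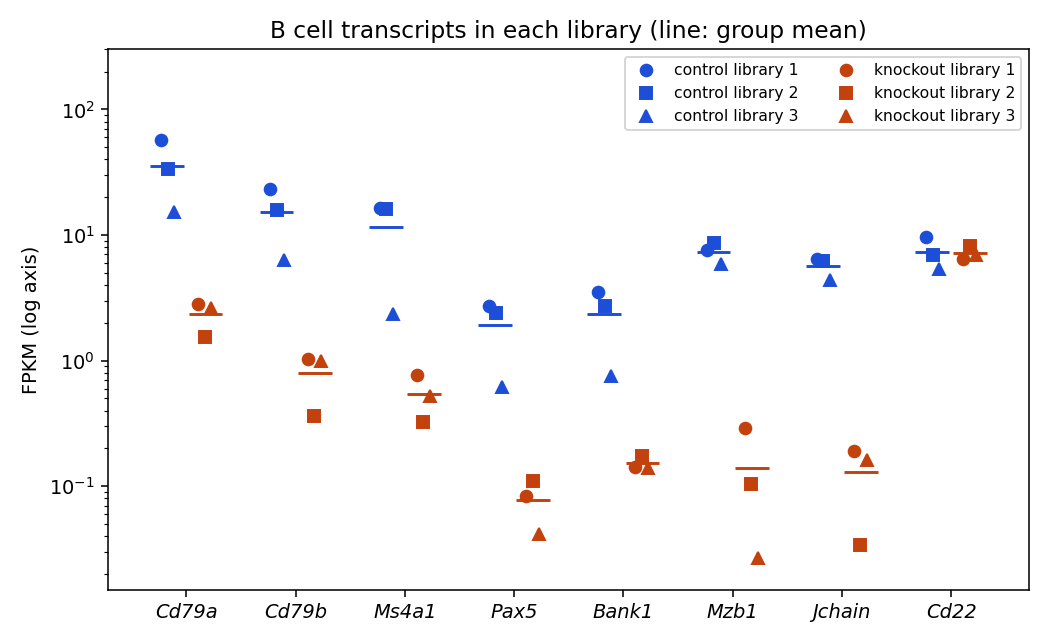
FPKM (log axis) of the 8 B cell transcripts in each library, with blue for the controls and orange for the knockout libraries, a marker shape for each library number and a line at the group mean. In 7 genes the knockout points sit below all control points, with control library 3 the lowest control, and in *Cd22* the points of both groups overlap between 5.40 and 9.58 FPKM.

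In all, 7 of the 8 genes passed an adjusted p of 0.05 in limma over all 9030 tested genes, each of them lower in the knockout libraries, and in the same 7 the groups did not overlap. Among all tested genes 7.31% passed in either direction and 4.74% passed downward, and in 23.0% all knockout values lay below all control values. As the genes were chosen with this contrast known, nothing is read from these counts. All 8 genes reached the filter of a mean of 1 FPKM in at least 1 group, but 6 of them did so through the controls alone, and only *Cd79a* and *Cd22* reached it in both groups. The number that passed fell to 2 without knockout library 1, knockout library 2 or control library 2, and to 4 without knockout library 3 or control library 1. It was 7 without control library 3. *Mzb1* and *Jchain* passed in each of these fits. Over the 7 genes the ratio of group means ran from 15.2 to 52.6 with all libraries, from 19.6 to 58.1 without control library 3 and from 13.0 to 46.7 without knockout library 2.

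The levels relative to *Cd79a* within a library differed between the genes. *Cd79b* was at 0.406 to 0.472 of *Cd79a* in the controls and at 0.238 to 0.377 in the knockout libraries, so that every knockout ratio was below every control ratio. *Ms4a1*, *Pax5* and *Bank1* relative to *Cd79a* had ranges that overlapped between the groups. *Mzb1* was at 0.133, 0.256 and 0.381 of *Cd79a* in control libraries 1 to 3 and at 0.102, 0.0681 and 0.0102 in knockout libraries 1 to 3. *Jchain* was at 0.112, 0.184 and 0.288 of *Cd79a* in the controls and at 0.0681, 0.0220 and 0.0618 in the knockout libraries. As for *Cd79b*, the knockout ratios of *Mzb1* and *Jchain* lay below the control ratios. They rest on 11, 4 and 1 reads of *Mzb1* and on 17, 3 and 14 reads of *Jchain*. Control library 3 had the highest ratio of *Mzb1* and of *Jchain*.

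**Figure D2:**
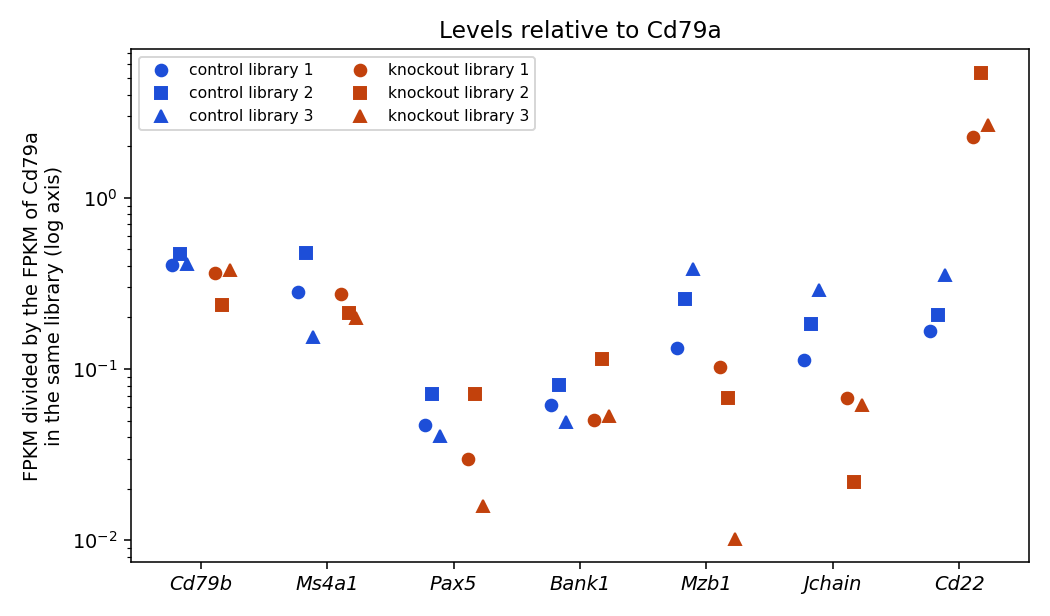
FPKM of each gene divided by the FPKM of *Cd79a* in the same library (log axis), with blue for controls and orange for knockout libraries. *Cd79b* stays between 0.238 and 0.472 in all libraries, *Cd79b*, *Mzb1* and *Jchain* are lower relative to *Cd79a* in the knockout libraries, and *Cd22* is higher, at 2.27 to 5.37.

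The wider set of B cell genes, drawn from lists of B identity, immunoglobulin chains, B-1 and B-2 subsets, and plasma and germinal centre cells, held 67 symbols. Of these, *Igj* and *Faim3* are older names of *Jchain* and *Fcmr*, which leaves 65 genes outside the 9 members. In all 48 had a row and 36 were tested, and 20 passed, 17 downward and 3 upward, beside 4.74% and 2.57% of all tested genes. The median log2 fold change of the 36 was -0.96, against -0.11 over all tested genes. Of the 36, 16 reached the filter through the controls alone, and these had to differ downward. The lists were written with earlier results known. Without knockout library 1 or control library 2 none of the 36 passed in limma (27 and 26 had an unadjusted p below 0.05), without knockout library 2 only 1 did, and without knockout library 3 there were 9. Without control library 3 there were 25. The 14 listed immunoglobulin chain genes other than *Jchain* were not analysed here.

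Of the 22 tested genes of the B identity list, 15 fell and 1 rose, beside 4.74% and 2.57% of all tested genes. Since 14 of the 22 reached the filter through the controls alone, these had to be lower in the knockout. With 1 library left out the number that passed ran from 0 (without knockout library 1 or control library 2) to 18 (without control library 3), and it was 1 without knockout library 2 (*Blk*) and 7 without knockout library 3, so the calls of *Ly6d* and *Cd83* were lost in these 3 fits without knockout library 1, knockout library 2 or control library 2. *Cd24a* passed in 1 of the 6 fits, the one without control library 3. The 6 most abundant were *Cd38*, *Blnk*, *Cd24a*, *Cd37*, *Cd83* and *Ly6d*, of which all but *Ly6d* were at 27.6 FPKM or more in each knockout library. *Ly6d*, a surface protein of early and mature B cells, fell from 61.2, 25.8 and 20.04 FPKM in the controls to 3.89, 2.54 and 1.95 FPKM (log2 fold change -3.14, standard error 0.40, limma adjusted p = 0.0113). *Cd83*, an activation protein of B cells, dendritic cells and macrophages, rose from a mean of 15.9 to 44.4 FPKM (log2 fold change 1.38, limma adjusted p = 0.0341). *Cd24a* fell from 75.2 to 51.5 FPKM (log2 fold change -0.54, limma adjusted p = 0.0414). *Blnk*, the adaptor of the B cell receptor that macrophages also make, was at 84.8 against 51.3 FPKM (log2 fold change 0.70, limma adjusted p = 0.0597). *Cd38* was at 94.2 against 188.8 FPKM (limma adjusted p = 0.0673) and *Cd37* at 39.2 against 51.1 FPKM (limma adjusted p = 0.217), so neither passed.

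Further genes of the B identity list were named after their values were seen. *Pou2af1*, which encodes the octamer coactivator of B cells, measured 0.371, 0.369 and 0.162 FPKM in the knockout against 11.5, 9.07 and 3.40 FPKM in the controls (limma adjusted p = 0.0125). It repeats the order of *Cd79a* in the controls, with library 1 highest and library 3 lowest. *Cxcr5*, the receptor for the follicular chemokine CXCL13, and *Tnfrsf13c*, the receptor for the survival factor BAFF, fell with log2 fold changes of -1.88 and -2.10 (limma adjusted p = 0.0359 and 0.0127). *Pou2af1*, *Cxcr5* and *Tnfrsf13c* reached the filter through the controls alone, so that their direction was set by it, and with 1 library left out they passed in 3, 2 and 3 of the 6 fits. *Ebf1*, an early B lineage factor, was below the filter, with 7, 6 and 8 reads in the knockout libraries and 234, 195 and 37 reads in the controls. *Cr2* and *Vpreb3* had 0 reads in each knockout library, which allows up to 3 reads per library, against 18, 70 and 2 reads and 6, 6 and 1 reads in the controls.

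**Figure D3:**
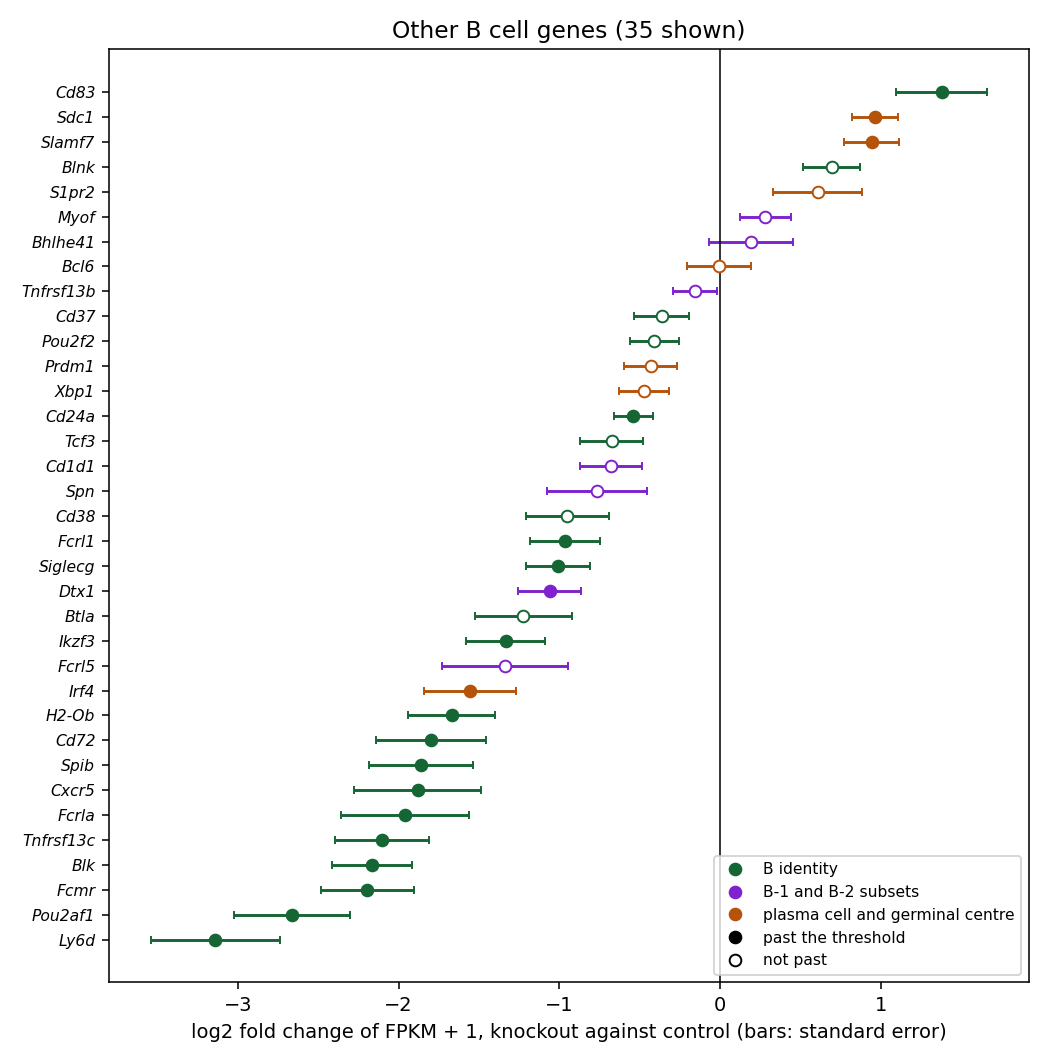
Log2 fold change of FPKM + 1, knockout against control, with its standard error, for 35 of the 36 tested B cell genes outside the members, where filled points passed an adjusted p of 0.05 in limma and colours mark the list. *Ly6d* at -3.14 is the lowest, and the 3 filled points on the right are *Cd83*, *Sdc1* and *Slamf7*.

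Among genes that separate B cell subsets, 1 of 7 tested genes passed, beside 7.31% of all tested genes. This was *Dtx1*, a gene of marginal zone B cells, which was at 0.0961 FPKM in the knockout mean and 1.34 FPKM in the control mean (log2 fold change -1.06, limma adjusted p = 0.0267). It reached the filter through the controls alone, and it passed in 2 of the 6 fits with 1 library left out (without control library 1 and without control library 3). The 6 most abundant were *Myof*, *Bhlhe41*, *Tnfrsf13b*, *Cd1d1*, *Spn* and *Fcrl5*, and none of them passed in the fit of all libraries. Without control library 1 or control library 3, 2 of the 7 passed, downward, beside 788 of 9077 and 1333 of 9006 of all tested genes. *Bhlhe41*, a factor of B-1 cells and also of macrophages, was at 28.1 against 25.4 FPKM (limma adjusted p = 0.662). *Fcrl5*, found on B-1 and marginal zone B cells, was at 0.207, 0.281 and 0.148 FPKM against 4.01, 2.71 and 0.544 FPKM (limma adjusted p = 0.0832), with no overlap of the groups. *Fcrl5* too reached the filter through the controls alone, so its direction was set by the filter. *Cd5*, the surface mark of B-1a cells, and *Fcer2a*, which encodes CD23 of follicular B cells, stayed below 1 FPKM in every library and were not tested. *Cd5* had 12, 0 and 3 reads in the knockout libraries against 42, 34 and 14 in the controls. *Fcer2a* had 1, 2 and 1 reads against 82, 85 and 20.

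Of the plasma cell and germinal centre list, 7 genes were tested, 2 rose and 1 fell, beside 2.57% and 4.74% of all tested genes. None of the 3 passed in limma without knockout library 1, knockout library 2 or control library 2, and *Irf4* did not pass without knockout library 3 either. Without control library 3, 5 of the 7 passed (3 higher, 2 lower), beside 1333 of all 9006 genes tested in that fit. *Sdc1*, which encodes the plasma cell mark CD138 and is made by macrophages too, rose from 12.1 to 24.8 FPKM (log2 fold change 0.97, limma adjusted p = 0.0151), and *Slamf7* rose from 130.3 to 251.2 FPKM (log2 fold change 0.94, limma adjusted p = 0.0262). *Irf4*, a transcription factor of plasma cells and some myeloid cells, fell from 6.84, 5.11 and 2.96 FPKM in the controls to 1.62, 0.722 and 0.658 FPKM (log2 fold change -1.55, limma adjusted p = 0.0263). *Xbp1* and *Prdm1*, which direct antibody secretion and are active in macrophages, were at 35.8 against 50.5 FPKM and at 5.72 against 7.996 FPKM and did not pass (limma adjusted p = 0.109 and 0.147). In these genes every knockout library lay below every control, as in 23.0% of all tested genes. *Bcl6* and *S1pr2* did not pass either (limma adjusted p = 0.983 and 0.205). The direction of *Sdc1* and *Slamf7* was thus opposite to that of *Mzb1* and *Jchain*. *Derl3* of the same list, below the filter, was lower in the knockout, with 1, 0 and 0 reads against 12, 13 and 10 in the controls.

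Of 14 tested signalling genes that B cells share with myeloid cells, 1 passed, beside 7.31% of all tested genes. The median log2 fold change of 0.0041 lies between genes that differed in opposite directions. The gene that passed was *Inpp5d*, which encodes the phosphatase SHIP, at 2.23 against 6.86 FPKM (log2 fold change -1.29, limma adjusted p = 0.0205), a call lost without knockout library 1, knockout library 2 or control library 2. Without control library 3, 4 of the 14 passed (1 higher, 3 lower), beside 1333 of all 9006 genes tested in that fit. *Lyn* was at 63.0 against 57.1 FPKM, *Syk* at 80.5 against 78.4 FPKM and *Fcgr2b* at 332.9 against 363.7 FPKM (limma adjusted p = 0.55, 0.83 and 0.644). *Ptpn6*, *Pik3ap1* and *Grb2* did not pass (limma adjusted p = 0.383, 0.576 and 0.699). Others, named after their values were seen, lay further apart without passing in the fit of all libraries, with *Prkcb* at 10.3 against 17.3 FPKM, *Cd81* at 3.45 against 8.26 FPKM and *Pik3cd* at 16.5 against 9.23 FPKM (limma adjusted p = 0.0509, 0.089 and 0.168).

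Of 8 genes whose products act on B cells, 3 were tested. *Cxcl13*, the chemokine with which peritoneal cells draw in B cells, measured 0.0819, 2.36 and 2.86 FPKM in the knockout against 17.9, 13.1 and 2.05 FPKM in the controls (log2 fold change -1.95, standard error 0.75, limma adjusted p = 0.149). Control libraries 1 and 2 were high, and control library 3 lay among the knockout libraries. *Il6* was at 220.3 to 1932 FPKM in the controls and at 357.8 to 536.6 FPKM in the knockout libraries (limma adjusted p = 0.46). *Cd40*, which macrophages and B cells carry, rose from 122.6 to 247.5 FPKM (log2 fold change 0.997, limma adjusted p = 0.0396), a call likewise lost without knockout library 1, knockout library 2 or control library 2. Without control library 3 all 3 tested genes passed, *Cxcl13* and *Il6* downward, in a fit where 1333 of 9006 tested genes passed. *Tnfsf13b*, the gene of BAFF, was at 0.232 to 0.338 FPKM in the knockout against 0.0241 to 0.0855 FPKM in the controls, below the filter.

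Markers of other cells differed between the groups as well. The share of all tested genes that passed downward was 4.74% and upward 2.57%. Of the mast cell list, 5 of 6 tested genes fell, namely *Cma1*, *Cpa3*, *Mcpt4*, *Tpsb2* and, with a limma adjusted p of 0.0497, *Kit*. *Cma1* fell from 10.3, 10.25 and 13.1 FPKM in the controls to 0.437, 0.608 and 0.762 FPKM, and *Cpa3* fell from 7.17, 7.28 and 8.10 FPKM to 0.418, 0.288 and 0.231 FPKM (limma adjusted p = 0.000665 and 0.000591). All 5 reached the filter through the controls alone and so had to be lower in the knockout. The summed level of the 9 mast cell genes was 47.1 to 54.7 FPKM in the controls and 9.46 to 16.99 FPKM in the knockout libraries. *Hdc*, at 7.37 to 15.04 FPKM, made up most of the knockout sum, and without it the sums of the other 8 genes were 38.5 to 49.8 FPKM and 1.95 to 2.33 FPKM. For the 8 B cell transcripts the sums were 40.9 to 127.2 FPKM in the controls and 10.9 to 11.8 FPKM in the knockout, of which *Cd22* made up the larger share. The 7 transcripts without *Cd22* summed to 35.5 to 117.7 FPKM in the controls and 2.65 to 5.33 FPKM in the knockout. Of the T cell list, 4 genes were tested and 1 fell, *Cd2*, which mouse B cells also carry, and the receptor chain genes *Cd3e*, *Cd3d* and *Cd3g* had 0 to 5 reads in each knockout library and 3 to 28 in each control. In the T cell list *Il7r*, at 21.8 to 73.3 FPKM, made up most of the sum of 35.2 to 77.3 FPKM in the controls and 51.9 to 69.1 FPKM in the knockout libraries. In the large peritoneal macrophage list, 2 of 9 tested genes fell (*Vsig4* and *Icam2*) and 1 rose (*Cd109*), with sums of 935.5 to 1109 FPKM in the controls and 919.1 to 1021 FPKM in the knockout libraries. *Adgre1*, *F10* and *Cebpb* carried these sums, and the other 8 genes summed to 16.6, 36.2 and 53.4 FPKM in control libraries 3, 2 and 1 and to 8.59 to 17.3 FPKM in the knockout. *Cd109*, which rose, made up most of the latter, at 7.88, 10.7 and 4.42 FPKM against 0.281, 0.814 and 1.58 FPKM in the controls. *Timd4*, *F5* and *Naip1* were lower in every knockout library than in any control, with ratios of means of 33.6, 8.31 and 8.61. Of these, *Timd4* and *F5* did not pass in the fit of all libraries and *Naip1* was below the filter.
Of the macrophage list 1 of 10 tested genes passed (*Fcgr1*, upward), of the neutrophil list 2 of 5 (*S100a8* and *Camp*, downward), of the erythrocyte and platelet list 2 of 5 (*Hba-a1* and *Hba-a2*, downward) and of the natural killer cell list 1 of 1 (*Klrk1*, upward). Of these markers *Cd2*, *Icam2*, *Timd4*, *F5*, *Camp*, *Hba-a1* and *Hba-a2* reached the filter through the controls alone, and *Klrk1* and *Cd109* through the knockout alone, so their direction was set by the filter. With any 1 library left out, *Cma1*, *Mcpt4*, *Tpsb2*, *Cpa3* and *Fcgr1* passed in all 6 fits, *Vsig4* in 5, *S100a8* in 4, and the other markers that passed, *Kit* among them, in 2 or 3. Without control library 3, 6 of 10 tested large peritoneal macrophage genes passed (1 higher, 5 lower). Of the macrophage list 4 of 10 then passed (3 higher, 1 lower), beside 1333 of all 9006 genes tested in that fit. None of 5 tested genes of the mesothelial and fibroblast list passed in limma (2 did without control library 3), though *Pdgfra* and *Col1a2* were at 1.21 against 0.112 FPKM and at 4.82 against 0.674 FPKM with every knockout library above every control (limma adjusted p = 0.0624 and 0.0678). Both reached the filter through the knockout alone, which set their direction. The 10 genes of that list summed to 0.225 to 9.69 FPKM in the controls and 6.80 to 24.2 FPKM in the knockout. No dendritic cell gene passed, with 1 tested, and no eosinophil gene was tested. The part of these other cells in the B cell result was not tested.

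Within the controls the B cell transcripts and the mast cell genes were ordered differently. All 8 B cell transcripts were lowest in control library 3, as were 24 of the 27 B identity genes, beside 26.6% of all tested genes. The T cell list shared this, with 11 of its 13 genes lowest there. The median ratio of control library 3 to the mean of the other controls was 0.328 for the 8 transcripts and 0.383 for the B identity genes. It was 0.291 for the T cell genes, 1.09 over all tested genes and 1.27 for the mast cell genes. In the large peritoneal macrophage list the median was 0.529, and the ratios ran from 0.0752 for *Timd4* to 2.89 for *Cd109*. The median for mesothelial and fibroblast genes was 6.5. These are values of 1 library against 2 and carry no test.

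**Figure D4:**
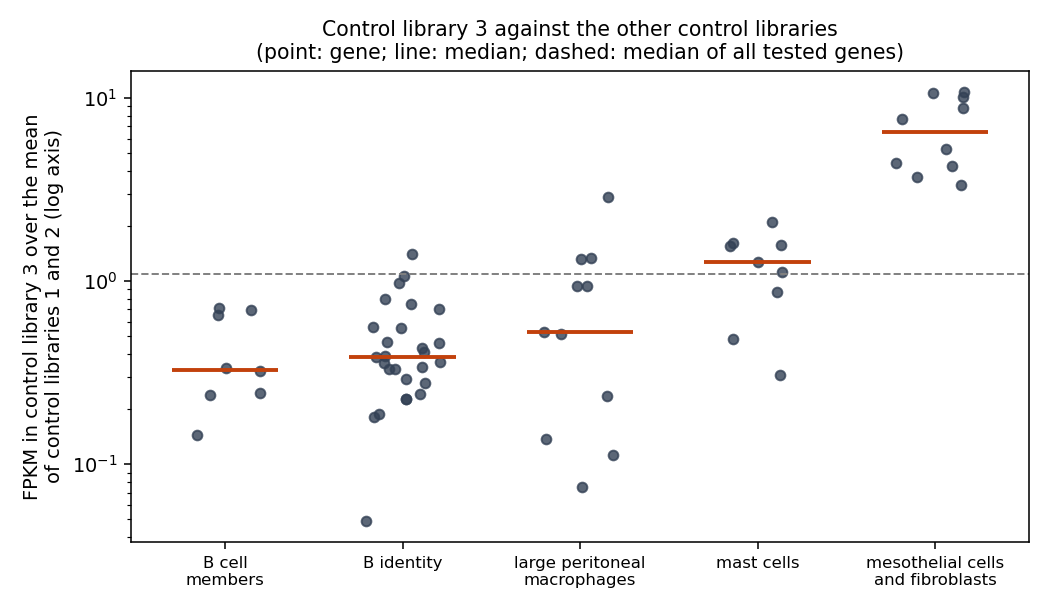
FPKM in control library 3 divided by the mean of control libraries 1 and 2 (log axis), with a point for each gene, an orange line at the median of each list and a dashed line at 1.09, the median of all tested genes. The B cell lists lie mostly below the dashed line, with medians of 0.328 and 0.383, and the mesothelial and fibroblast genes lie above it. The T cell genes are not shown.

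Among the genes whose profile over the 6 libraries was most like the mean profile of the 8 B cell transcripts were LOC105246083, *Gm33055*, *Ablim1*, *Ltbp1*, *Cd72*, *Ppp1r16b* and *Rasgrp3*, with Pearson r between 0.9974 and 0.9994 on the log2(FPKM + 1) scale. The points share their libraries and the group difference, and 212 of the 9022 genes compared reached an r of 0.95. *Cd72*, a co-receptor of B cells, measured 0.962, 0.725 and 0.790 FPKM in the knockout against 8.89, 6.24 and 2.55 FPKM in the controls. *Rasgrp3*, a Ras activator downstream of the B cell receptor, was at 0.166 to 0.211 FPKM and at 2.28, 1.63 and 0.849 FPKM. LOC105246083 was listed at 0 in every knockout library and at 2.53, 1.85 and 0.570 FPKM in the controls. Among the members themselves r with the mean profile ran from 0.928 (*Mzb1*) to 0.996 (*Bank1*), apart from *Cd22* at 0.365.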

How the data were processed

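The authors deposited 1 table of 15415 genes with FPKM values for each library (reads scaled by gene length and library size) and signal columns of mean reads per group after division by DESeq2 size factors. Its columns of fold change, p-value and q-value hold the authors' own comparison and were not used. The labels name the build mm9, and the aligner, counter and annotation are not given in the sources used here. Whole reads were recovered from the FPKM values and the group means (100% of values whole within 0.01 in every library). No per-sample column was left unused.

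In limma 3.58.1 (R 4.3.3), lmFit and eBayes with a trend were run on log2(FPKM + 1) of the 9030 genes whose mean reached 1 FPKM in one group, with Benjamini-Hochberg adjustment and a threshold of 0.05. The members and the gene lists were chosen with earlier results of these data known. Named were all members, up to 6 of the most abundant tested genes of each B cell list, counts of 5 or fewer in the main fit gene by gene, and the 8 genes most like the members. Further genes named were chosen after their values were seen. Some genes that enter the fits and counts are not reported here by name. Deviations from group means correlated at 0.109, 0.109 and 0.304 for libraries of the same number (from -0.332 to 0.291 for other numbers). The main fit took no pairing by number, which entered only as a block in an alternative. Promoters are from RefSeq (GRCm38.p6). The fit was tested on simulated data. Alternatives were other filters, a pseudocount of 0.1, rescaling, voom on recovered reads, the replicate number as a block, and leaving out each library.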

Additional observations from a re-analysis of the deposited data

How the results depend on the processing

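Of the 8 members, 7 passed with a pseudocount of 0.1 and with the replicate number as a block, 6 with voom on the recovered reads, and 5 of 6 tested with at least 10 reads in every library, a filter that leaves out *Mzb1* and *Jchain*. The count was 4 without a filter on low values and 4 after rescaling by the median of ratios, where *Ms4a1*, *Pax5* and *Bank1* had limma adjusted p of 0.0561, 0.0562 and 0.0606. The cause was not tested. With 1 library left out it ran from 2 to 7. The 7 genes were lower in the knockout under all alternatives that tested them, whereas *Cd22* turned from 0.01 to -0.078 without knockout library 2, to -0.0081 without control library 2 and to -0.16 without control library 3, a range of -0.16 to 0.20 with 1 library left out. For the other B cell genes the count of 20 stayed between 14 and 21 under the alternatives that kept all libraries and ran from 0 to 25 with 1 library left out. For all tested genes the count of 660 (232 higher, 428 lower) ran from 8 to 1333 with 1 library left out. Rescaling, which moved the median log2 fold change from -0.11 to -0.0045, gave 327 higher and 346 lower, and the fit without a filter called 446 (141 higher). With the replicate block 855 genes passed (352 higher), among them 21 of the other B cell genes, and the block changed no call among the members. Low read counts limit *Mzb1* and *Jchain* in the knockout libraries.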
